A study of Mus musculus with 4 samples.

Results

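The Iroquois homeobox family of the mouse comprises *Irx1* to *Irx6*. Its expression was examined in embryonic retinas with and without a conditional deletion of the gene for the transcription factor Nrf1. All 6 were among the 24062 genes counted and among the 15762 that passed the filter on low counts. The family was selected on measured values of the same comparison between genotypes that is described here, so the differences of its members are given as a description, with no p-value, and the calls that the fit over all genes gives them serve only as labels. RNA-seq was performed at E13.5 on 2 wildtype (WT) and 2 *Nrf1 f/f;Six3-Cre* (Nrf1-CKO) retina libraries of a C57BL/6 129 mixed strain, each made from pooled retinas of several embryos. In the Nrf1-CKO retinas a floxed exon of *Nrf1* is removed by the Six3-Cre driver, which acts in retinal progenitor cells (RPCs), while the WT retinas keep *Nrf1*. The study reported that the driver begins to act in the central retina, and that Nrf1 protein was lost in the central part of mutant retinas. Nrf1 (nuclear respiratory factor 1) activates genes of mitochondrial biogenesis. The labels do not say whether the 2 libraries of a genotype came from separate litters, so the p-values given for other genes measure only the spread between these libraries.

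Iroquois proteins are transcription factors of the TALE class, whose homeodomain carries an extra loop of amino acids. They pattern many tissues, including the nervous system, heart and limb, and their genes lie in a pair of genomic clusters that arose by duplication. In the retina, members of the family are known from newly formed retinal ganglion cells (RGCs), the projection neurons born first, and *Irx5* and *Irx6* are also known for roles in bipolar cells, which form later.

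*Irx2*, *Irx3*, *Irx4*, *Irx5* and *Irx6* were lower in Nrf1-CKO than in WT retinas, at between 11.7% and 36.5% of the WT mean, whereas *Irx1* was higher, at 175%. The groups did not overlap for any of the 6 genes. A gene was called lower or higher where it differed 1.4-fold or more and had an adjusted p no greater than 0.2 in edgeR's quasi-likelihood test, and by that rule 5 members were lower and 1 was higher. Over all 15762 tested genes, 8.04% were called lower and 12.8% higher. Both Nrf1-CKO libraries were below both WT libraries for 31.6% of the tested genes, and above both for 30.9%. The family was chosen with this comparison in view, so nothing is read from its counts against these shares.

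The 6 genes lie in 2 clusters in the GRCm38 (mm10) assembly. The chromosome 13 cluster spans 1312 kb, chr13:71957921-73269608, and holds *Irx1* (chr13:71957921-71963723, minus strand), *Irx2* (chr13:72628820-72634198, plus strand) and *Irx4* (chr13:73260479-73269608, plus strand). The chromosome 8 cluster spans 882 kb, chr8:91798525-92680956, and holds *Irx3* (chr8:91798525-91802067, minus strand), *Irx5* (chr8:92357625-92376286, plus strand) and *Irx6* (chr8:92674288-92680956, plus strand). All 6 genes code for protein, with 4 to 6 exons in the coding transcript used here.

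The part of the family that is most alike is the homeobox, and a window of 90 coding bases from it is shown because near-identical copies can take each other's reads in counting. The windows lie at chr13:71960031-71960120 (*Irx1*, exon 2, minus strand), chr13:72630724-72630813 (*Irx2*, exon 2), chr8:91800535-91800624 (*Irx3*, exon 2, minus strand), chr13:73267583-73267672 (*Irx4*, exon 5), chr8:92359687-92359776 (*Irx5*, exon 2) and chr8:92677296-92677385 (*Irx6*, exon 4). Each is written 5′ to 3′ on the coding strand, and capitals mark the bases that are the same in all 6 genes.
Irx1: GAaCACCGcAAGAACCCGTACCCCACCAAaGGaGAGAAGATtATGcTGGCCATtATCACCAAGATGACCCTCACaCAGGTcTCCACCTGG
Irx2: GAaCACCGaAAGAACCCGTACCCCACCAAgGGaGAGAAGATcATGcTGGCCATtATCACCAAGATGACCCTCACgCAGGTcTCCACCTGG
Irx3: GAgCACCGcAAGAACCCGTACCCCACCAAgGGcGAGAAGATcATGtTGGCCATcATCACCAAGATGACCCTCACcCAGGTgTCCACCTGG
Irx4: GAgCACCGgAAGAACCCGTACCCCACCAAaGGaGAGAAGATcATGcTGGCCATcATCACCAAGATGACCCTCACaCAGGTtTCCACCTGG
Irx5: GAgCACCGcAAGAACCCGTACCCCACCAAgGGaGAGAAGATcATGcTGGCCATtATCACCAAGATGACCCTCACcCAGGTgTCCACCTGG
Irx6: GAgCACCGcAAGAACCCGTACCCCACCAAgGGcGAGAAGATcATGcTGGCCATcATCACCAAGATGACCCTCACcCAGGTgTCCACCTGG
In this window 81 of 90 bases were the same in every member. Pairs of members were 91.1% to 98.9% identical here, with *Irx3* and *Irx6* the closest pair. Over the whole aligned coding sequence, pairs were only 46.5% to 60.7% identical. The closest pairs there joined a gene of one cluster with a gene of the other, namely *Irx2* with *Irx5* (60.7%), *Irx1* with *Irx3* (58.2%) and *Irx4* with *Irx6* (57.9%).

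No stretch of 100 bases of a member's coding transcript was found in a transcript of another Iroquois gene, 100 bases being the length of the reads. Only exact matches were sought, so reads placed with mismatches are not covered. Every such stretch of *Irx1*, *Irx2*, *Irx4* and *Irx5* was found in no other gene's GENCODE transcripts, the annotation searched. In *Irx3*, 25 of 2511 stretches (0.996%) were also in *Irx3os*, and in *Irx6*, 30 of 3271 (0.917%) were also in Gm45505. These 2 noncoding genes overlap *Irx3* and *Irx6* on the opposite strand. The sources used here do not state whether counting used strand, and without it reads from a gene and its antisense partner cannot be told apart.

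The promoters of *Irx2*, *Irx3* and *Irx4*, of which RefSeq sequence was used here (GRCm38.p6, 250 bases before to 50 after the start), are shown because Nrf1 is known to bind GC-rich promoter elements. *Irx1*, *Irx5* and *Irx6* are not shown. They are chr13:72628570-72628869 (*Irx2*, plus strand), chr8:91801605-91801904 (*Irx3*, minus strand) and chr13:73260247-73260546 (*Irx4*, plus strand), written 5′ to 3′ on the gene's strand. The RefSeq start equals the GENCODE start of *Irx2* and lies 18 bases downstream of it in *Irx4*. In *Irx3* it lies 413 bases downstream, so the *Irx3* window is wholly inside the GENCODE gene given above, and its values apply to the RefSeq start only. Capitals mark CpG dinucleotides, the sites of DNA methylation.
Irx2: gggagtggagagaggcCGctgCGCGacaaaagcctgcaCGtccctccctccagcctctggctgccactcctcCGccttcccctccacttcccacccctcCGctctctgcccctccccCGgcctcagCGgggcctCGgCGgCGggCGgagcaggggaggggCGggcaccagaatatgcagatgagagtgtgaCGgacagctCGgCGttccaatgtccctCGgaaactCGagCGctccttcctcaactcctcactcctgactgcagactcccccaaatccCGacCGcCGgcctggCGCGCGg
Irx3: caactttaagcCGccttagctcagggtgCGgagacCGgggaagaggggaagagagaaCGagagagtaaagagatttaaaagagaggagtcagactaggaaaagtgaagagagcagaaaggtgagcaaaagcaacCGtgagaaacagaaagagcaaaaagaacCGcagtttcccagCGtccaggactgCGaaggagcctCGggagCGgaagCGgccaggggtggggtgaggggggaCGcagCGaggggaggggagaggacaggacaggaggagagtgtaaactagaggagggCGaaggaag
Irx4: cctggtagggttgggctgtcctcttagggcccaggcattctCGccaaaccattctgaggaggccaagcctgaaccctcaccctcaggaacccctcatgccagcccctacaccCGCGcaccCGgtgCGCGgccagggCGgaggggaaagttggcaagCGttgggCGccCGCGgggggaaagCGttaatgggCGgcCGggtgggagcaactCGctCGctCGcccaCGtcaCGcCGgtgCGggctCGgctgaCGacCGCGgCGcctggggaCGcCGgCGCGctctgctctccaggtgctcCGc
*Irx4* held 31 CpG and was 70.7% GC, and 89.4% of all 32851 promoters of this length held fewer CpG. *Irx2* held 25 CpG and was 69.0% GC, with fewer CpG in 81.6% of promoters. *Irx3* held 14 CpG and was 56.0% GC, with fewer CpG in 63.7% of promoters. The medians over all promoters were 7 CpG and 52.7% GC, so all 3 were above both medians.

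Short motifs were searched on both strands of these windows. They were TGCGCA, a form of the NRF1 core, and ACANNTGT, a site of Iroquois proteins. CAGCTG, an E-box of basic helix-loop-helix factors, and ATTAAT, a core of POU4 sites, were the others. An ACANNTGT match can contain CAGCTG. None of them was in any of the 3 Iroquois promoters. Over all promoters of this length, 7.76% held TGCGCA, 7.38% held ACANNTGT, 16.3% held CAGCTG and 4.75% held ATTAAT. Only these exact letters were searched. Their absence from the windows says nothing about other forms of these sites or about binding elsewhere.

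The libraries had 74577660 to 85933945 reads counted on genes, and levels are given as CPM, the read count scaled to one common library total, with TMM (trimmed mean of M values) factors of 0.992 to 1.02. The targeted gene itself had 9052 and 7789 reads in WT and 8594 and 8284 in Nrf1-CKO retinas, with a log2 fold change of -0.03 ± 0.07 (SE). Counts of whole genes cannot check the removal of an exon, so *Nrf1* neither checks nor contradicts the labels here. The retina was recognisable by *Pax6*, at 646 ± 19.3 CPM in WT and 656 ± 17.6 in Nrf1-CKO (SD, n = 2 each).

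*Irx4* had the largest difference in the family. It was represented by 626 and 871 reads in the WT libraries and by 141 and 42 in the Nrf1-CKO libraries (replicates 1 and 2 in each). The mean fell from 9.45 ± 3.25 to 1.10 ± 0.841 CPM (SD, n = 2 each), a log2 fold change of -3.10 ± 0.47 (SE), or 8.55-fold lower. Both mutant libraries were far below both WT libraries, but they also differed from each other 3.34-fold in CPM, the widest gap between replicates in the family. Replicate 1 was at 18.0% of the WT mean and replicate 2 at 5.37%. The log2 fold change was -4.21 without Nrf1-CKO replicate 1 and -2.48 without Nrf1-CKO replicate 2, so the size of the decrease depended on which mutant library was used, and its direction did not.

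*Irx5* and *Irx6*, the neighbours on chromosome 8 linked with bipolar cells, had differences of like size. *Irx5* had 1591 and 2151 reads in WT and 627 and 421 reads in Nrf1-CKO libraries. Its mean was 23.6 ± 7.66 CPM in WT and 6.32 ± 1.74 CPM in Nrf1-CKO retinas (SD, n = 2 each), with a log2 fold change of -1.90 ± 0.24 (SE). The mutant mean was 26.8% of WT, and the highest mutant library stayed below the lowest WT library. *Irx6* had 1232 and 1448 reads in WT and 439 and 354 reads in Nrf1-CKO libraries. Its mean was 16.8 ± 3.86 CPM in WT and 4.78 ± 0.711 CPM in Nrf1-CKO retinas, with a log2 fold change of -1.81 ± 0.19, at 28.5% of WT. The mutant libraries of *Irx6* lay close together, at 31.5% and 25.5% of the WT mean.

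*Irx2*, which has the highest counts of the family, was represented by 3959 and 4226 reads in WT and 1588 and 1407 reads in Nrf1-CKO libraries. Its mean was 51.1 ± 8.32 CPM in WT and 18.1 ± 1.49 CPM in Nrf1-CKO retinas (SD, n = 2 each), with a log2 fold change of -1.50 ± 0.12 (SE), the smallest SE in the family. The mutant mean was 35.3% of WT. *Irx3*, at one end of the chromosome 8 cluster, had 1432 and 1569 reads in WT and 670 and 464 reads in Nrf1-CKO libraries. Its mean was 18.8 ± 3.40 CPM in WT and 6.84 ± 1.74 CPM in Nrf1-CKO retinas, with a log2 fold change of -1.45 ± 0.19, at 36.5% of WT. The groups of both genes were clearly apart, and their fold changes were nearly the same although *Irx3* was counted at a lower level.

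*Irx1* was the member with the fewest reads in WT, and the only one that was higher in the mutant. It had 93 and 103 reads in WT and 148 and 208 reads in Nrf1-CKO libraries. Its mean was 1.23 ± 0.231 CPM in WT and 2.15 ± 0.518 CPM in Nrf1-CKO retinas (SD, n = 2 each), with a log2 fold change of 0.81 ± 0.34 (SE), or 1.75-fold higher. The lowest mutant library was above the highest WT library. The call was lost without WT replicate 1, at a log2 fold change of 0.63, and without Nrf1-CKO replicate 2, at 0.54. It was also lost with an adjusted p of at most 0.05 and in the normalized log2 values that the authors deposited, where the difference was 0.26.

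**Figure D1:**
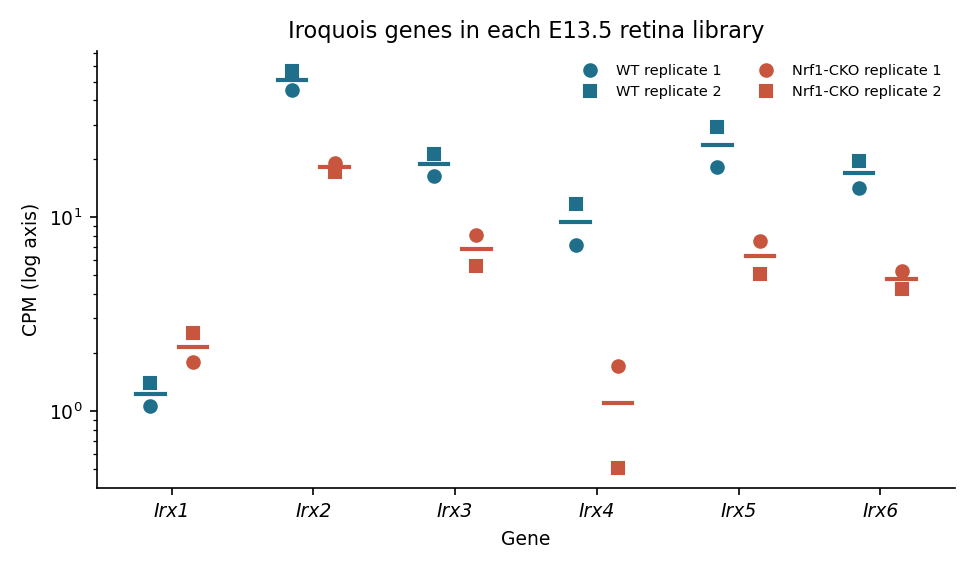
CPM (log axis) of the 6 Iroquois genes in each library, with WT in blue and Nrf1-CKO in red, replicates 1 and 2 as circles and squares, and the mean of each genotype as a line. The mutant libraries lie below the WT libraries for *Irx2* to *Irx6* and above them for *Irx1*, and the 2 mutant values of *Irx4* are the farthest apart, 3.34-fold.

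Within a genotype, most members differed in the same direction between the libraries, by unequal amounts. WT replicate 2 was above WT replicate 1 in all 6 genes, by 1.26-fold (*Irx2*) to 1.64-fold (*Irx4*). Nrf1-CKO replicate 1 was above replicate 2 in *Irx2* to *Irx6*, by 1.12-fold (*Irx2*) to 3.34-fold (*Irx4*), while *Irx1* had the opposite order, with a ratio of 0.709. The members of one library share that library, so these orders are not separate observations.

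As libraries were left out singly, the log2 fold change ranged from -1.65 to -1.32 for *Irx2*, from -1.74 to -1.22 for *Irx3*, from -2.21 to -1.52 for *Irx5* and from -2.03 to -1.55 for *Irx6*. In the authors' normalized log2 values the differences were smaller, -1.23 for *Irx2*, -0.98 for *Irx3*, -1.28 for *Irx5* and -1.13 for *Irx6*. *Irx4* moved most, to -1.39. The lowest of those values was 8.13. Why the differences were smaller on that scale was not tested. The 5 decreases and the increase of *Irx1* kept their direction in each of these settings.

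**Figure D2:**
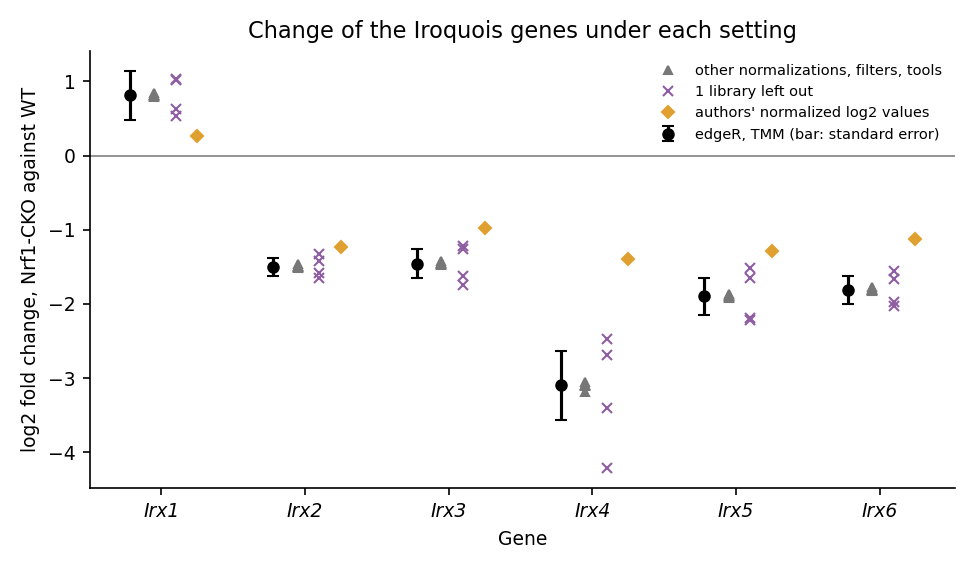
Log2 fold change (Nrf1-CKO against WT) of each Iroquois gene in edgeR with its standard error (black), with other normalizations, filters and tools (grey triangles), with 1 library left out (purple crosses) and in the authors' normalized log2 values (yellow diamonds). *Irx4* ranges from -4.21 to -1.39 and is the lowest gene in each setting drawn, while *Irx1* is above 0 in every setting drawn.

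To compare levels between genes, reads were divided by exon length, which gives CPM per kilobase of exon (RPKM). In WT retinas *Irx2* had the highest level, 15.6 ± 2.54 RPKM (SD, n = 2), with 13.8 and 17.4 in its 2 libraries. *Irx5* followed at 7.54 ± 2.45 RPKM, *Irx3* at 6.79 ± 1.23, *Irx6* at 4.98 ± 1.14 and *Irx4* at 3.62 ± 1.25. *Irx1* was by far the lowest, at 0.468 ± 0.088 RPKM. *Irx5* and *Irx3* changed places between the WT libraries, with 5.81 and 5.92 RPKM in replicate 1 and 9.27 and 7.66 in replicate 2. With the length of the longest transcript in place of all exons, *Irx5* was above *Irx3* in both, at 7.12 against 5.95 and 11.4 against 7.70 RPKM, so their order depended on the length used and was not resolved. The ranges of *Irx6* and *Irx4* overlapped between libraries, but *Irx6* was the higher within each, at 4.17 against 2.74 RPKM and 5.79 against 4.50 RPKM. The libraries of *Irx2* and *Irx5*, of *Irx3* and *Irx6*, and of *Irx4* and *Irx1* did not overlap.

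In Nrf1-CKO retinas the order of levels was *Irx2* (5.50 ± 0.454 RPKM), *Irx3* (2.48 ± 0.629), *Irx5* (2.02 ± 0.556), *Irx6* (1.42 ± 0.211), *Irx1* (0.820 ± 0.198) and *Irx4* (0.423 ± 0.323). *Irx2* was again highest, and *Irx4* took the lowest place from *Irx1*. *Irx1* had 0.680 and 0.960 RPKM and *Irx4* 0.651 and 0.195, so they did not overlap, but replicate 1 of each was nearly equal. The ranges of *Irx3* and *Irx5* overlapped between libraries, and those of the other neighbours did not. *Irx3* was the higher of that pair within each mutant library per exon length, but per longest transcript *Irx5* was the higher in replicate 1, at 2.96 against 2.93 RPKM, so this order was not resolved either.

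Summed over the family, the level was 32.8 and 45.1 RPKM in the WT libraries and 14.1 and 11.3 RPKM in the Nrf1-CKO libraries. *Irx2* made up 42.0% and 38.5% of it in WT and 41.4% and 46.0% in Nrf1-CKO libraries, ranges that overlapped. *Irx3* made up 18.0% and 17.0%, and 20.8% and 18.0%, in the same order. *Irx5* contributed 17.7% and 20.6% in WT, and 17.2% and 14.4% in Nrf1-CKO libraries. These 3 genes thus kept most of the family's level in every library. The share of *Irx6* was 12.7% and 12.8% in WT and 11.2% and 11.3% in Nrf1-CKO libraries. *Irx4* went from 8.35% and 9.98% to 4.63% and 1.73%, and *Irx1* from 1.23% and 1.17% to 4.84% and 8.52%. In bulk tissue, fewer cells of a type and less RNA per cell cannot be told apart, so these levels are those of the whole retina.

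**Figure D3:**
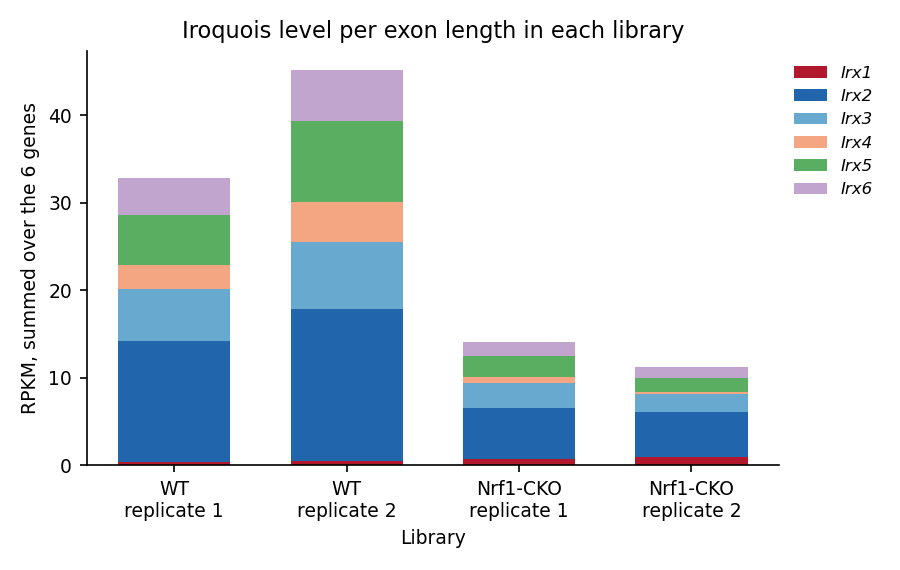
Level per exon length (RPKM) of the 6 Iroquois genes, stacked in each library. The summed level is 32.8 and 45.1 in WT and 14.1 and 11.3 in Nrf1-CKO libraries, and *Irx2* forms the largest block in all 4.

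The surroundings of the members were examined next, to see whether genes beside them differed too. Inside the chromosome 13 cluster lie 10 other annotated genes, of which 2 were in the count table. Gm20554 is a noncoding gene that starts 256 bases from the start of *Irx2* and runs the other way. It had 192 and 269 reads in WT and 102 and 87 in Nrf1-CKO libraries. It was lower, with a log2 fold change of -1.35 ± 0.34 (SE, adjusted p = 0.0199 in edgeR), close to that of *Irx2*, although not called in the authors' normalized values. In the RefSeq annotation the spans of *Irx2* and Gm20554 overlap on opposite strands, so some of their reads may not be told apart. The other gene, D730050B12Rik, had 4, 3, 1 and 0 reads and was not tested.

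The chromosome 8 cluster holds 13 other annotated genes, 1 of them in the count table. This was *Crnde*, a noncoding gene that starts 1505 bases from *Irx5* and is transcribed away from it. It had 473 and 440 reads in WT and 268 and 216 in Nrf1-CKO libraries. *Crnde* was lower, from 5.67 ± 0.376 to 2.92 ± 0.435 CPM (SD, n = 2 each), with a log2 fold change of -0.96 ± 0.20 (SE, adjusted p = 0.00943 in edgeR), and likewise was not called in the authors' normalized values. Both tested neighbours inside the clusters were thus lower, as were the Iroquois genes whose starts they face.

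Outside the clusters, the 5 nearest protein-coding genes on each side gave 20 genes, of which 18 were tested. Their median log2 fold change was -0.04, against 0.00073 over all tested genes, and 1 was lower and 3 were higher. *Ube2ql1*, beyond *Irx1* on chromosome 13, was lower, with a log2 fold change of -1.51 ± 0.23 (SE, edgeR adjusted p = 0.00197). *Adamts16*, the nearest coding gene beyond *Irx1* and a secreted metalloprotease, was higher, at 1.57 ± 0.35 (edgeR adjusted p = 0.0121). *Mmp2*, a matrix metalloprotease gene, was the nearest beyond *Irx6* and was higher, at 0.55 ± 0.09 (edgeR adjusted p = 0.00306), a call lost in the authors' normalized values. *Lpcat2*, an enzyme gene of lipid synthesis, was higher, at 0.49 ± 0.19 (edgeR adjusted p = 0.102), just past the fold limit, and its call was lost without WT replicate 1, WT replicate 2 or Nrf1-CKO replicate 1, with library-size scaling, at an adjusted p of 0.05 and in the authors' normalized values. *Fto*, the nearest coding gene beyond *Irx3*, had a log2 fold change of -0.07, and *Ndufs6* and *Mrpl36*, the nearest beyond *Irx4*, had -0.30 and 0.01, none of which was called.

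**Figure D4:**
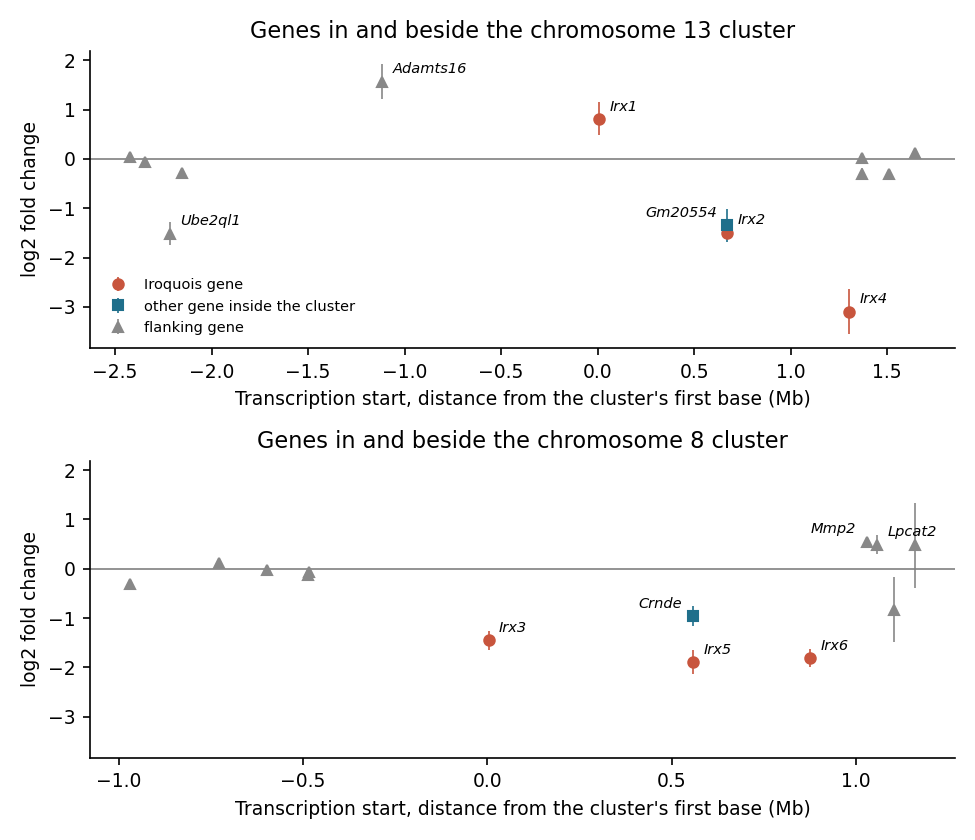
Log2 fold change (Nrf1-CKO against WT, bars standard errors) of tested genes against the distance of their transcription start from the start of each cluster, in Mb, for Iroquois genes (red circles), other genes inside the clusters (blue squares) and flanking genes (grey triangles). *Gm20554* and *Crnde* lie directly beside *Irx2* and *Irx5*, and the flanking genes have a median of -0.04.

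The other TALE homeobox genes, *Meis*, *Pbx*, *Pknox*, *Tgif* and *Mkx*, served as relatives of the family by their homeodomain. All 12 were tested, and their median log2 fold change was 0.05, against -1.66 for the Iroquois genes. *Meis3* alone was called, from 67.7 ± 5.64 CPM in WT to 42.0 ± 2.70 in Nrf1-CKO retinas (SD, n = 2 each), with a log2 fold change of -0.69 ± 0.09 (SE, edgeR adjusted p = 0.000868). In edgeR 0 of the 12 were called higher, with 2 at an unadjusted p under 0.05, and DESeq2 and limma also called 0. The largest positive value was 0.34 ± 0.07 for *Tgif1*. The members of this list lay between those values, although *Mkx* ranged from -0.44 to 0.87 as libraries were left out singly. The Iroquois genes ranged from -3.10 to 0.81. They were selected on this comparison, so nothing is read from the difference between the lists.

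The transcription factors of RGCs formed another list, since Iroquois genes are known from these cells. Of 18 tested, 13 were lower and 0 higher in edgeR, with 0 higher at an unadjusted p under 0.05 and 0 in DESeq2 and limma. The median log2 fold change was -0.94. Several of these genes were named by the study from these libraries, so the count is not independent evidence of its direction. *Pou4f3* (-3.48 ± 0.51, edgeR adjusted p = 0.00147) and *Pou4f1* (-1.84 ± 0.18, edgeR adjusted p = 0.000261), POU factors of RGC differentiation and survival, were lower. *Pou4f3* had 139 and 184 reads in WT and 20 and 10 in Nrf1-CKO libraries. *Eomes* (-2.78), *Ebf3* (-1.73), *Ebf1* (-1.56), *Isl1* (-1.37) and *Myt1* (-1.17) were lower too. *Irx4* was between *Pou4f3* and *Eomes* in this order of fold changes, and the other lower members were between *Eomes* and *Isl1*. *Atoh7*, the basic helix-loop-helix gene that makes progenitors competent to form RGCs, had -0.29 ± 0.14 and was not called, except without WT replicate 1.

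Genes for signals and patterning factors linked with Iroquois genes in other tissues showed no common direction. Of 9 listed, 8 were tested, and 2 were lower and 1 higher. The list's median was -0.07 on the log2 scale. *Bmp4*, a signal of dorsal retina, had 214 and 170 reads in WT and 442 and 670 in Nrf1-CKO libraries and was higher, at 1.50 ± 0.24 (SE, edgeR adjusted p = 0.0023). *Shh*, the Hedgehog ligand made by RGCs, had 165 and 142 reads in WT and 47 and 3 in Nrf1-CKO libraries and was lower, at -2.65 ± 0.81 (edgeR adjusted p = 0.0452). Its log2 fold change was -5.65 without Nrf1-CKO replicate 1 and -1.75 without Nrf1-CKO replicate 2, so replicate 2 carried the larger part. *Nkx6-1*, with 11 and 36 reads in WT and 5 and 8 in Nrf1-CKO libraries, was called lower, but this call was lost without WT replicate 2, Nrf1-CKO replicate 1 or Nrf1-CKO replicate 2, with a replicate block, with either other filter, at the stricter adjusted p, in DESeq2 and in the authors' normalized values. *Nkx2-2* was not tested.

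Of 9 genes linked downstream of Iroquois factors, 7 were tested, with a median log2 fold change of 0.77. *Slit1*, a guidance ligand for growing axons, was lower, from 76.7 ± 4.96 to 39.3 ± 1.28 CPM (SD, n = 2 each), at -0.97 ± 0.08 (SE, edgeR adjusted p = 0.000145). There were 5 higher genes. *Gja1*, the gap junction gene connexin 43, rose from 156 ± 12.3 to 328 ± 1.14 CPM (edgeR adjusted p = 0.000105), and the chemokine gene *Cxcl12* (0.77, edgeR adjusted p = 0.00379) and the potassium channel gene *Kcnd2* (1.05, edgeR adjusted p = 0.0283) were also higher. The gap junction gene *Gja5* (0.53, edgeR adjusted p = 0.0491) and the bipolar cell factor *Vsx1* (1.48, edgeR adjusted p = 0.135) lost their calls without WT replicate 1 or Nrf1-CKO replicate 1, which left 3 higher genes. In the authors' normalized values 1 was higher. As libraries were left out singly, the log2 fold change of *Vsx1* ranged from 0.85 to 2.56, on 14 and 39 reads in WT. *Rcvrn* and *Cabp5* had too few reads to be tested.

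**Figure D5:**
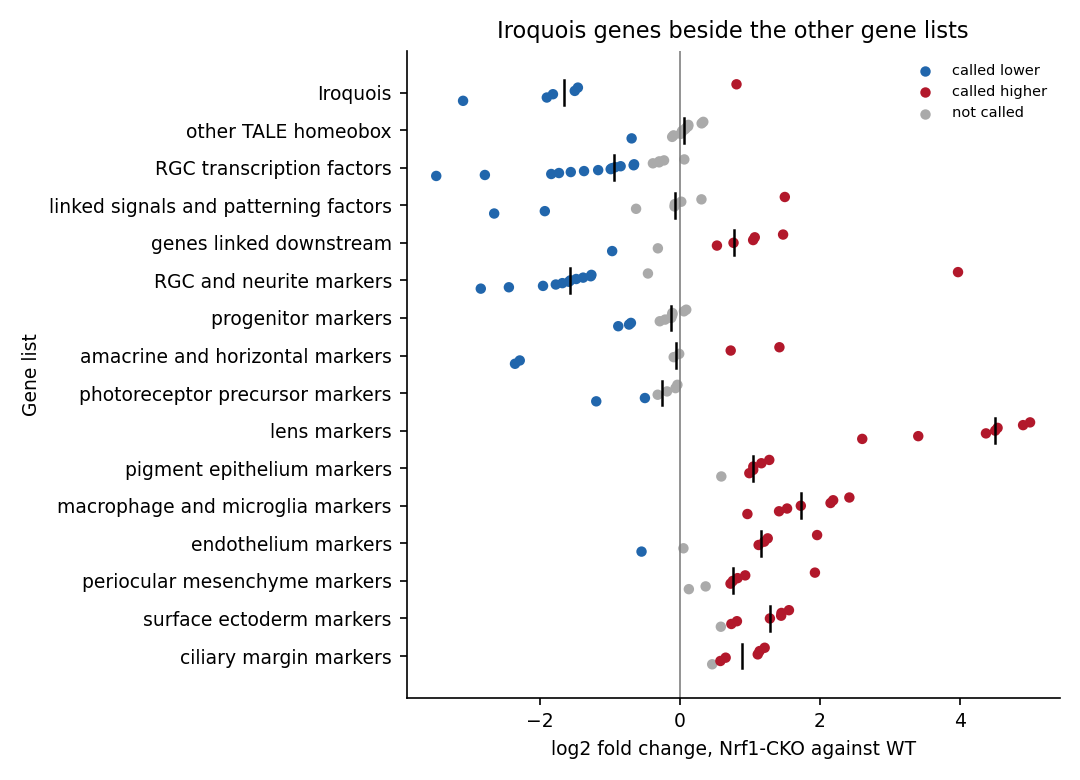
Log2 fold change (Nrf1-CKO against WT) of each tested gene of the Iroquois family and the other lists, blue where called lower, red where called higher and grey where not called, with the median of each list as a black line. The Iroquois median is -1.66, beside -0.94 for RGC transcription factors, 0.05 for other TALE genes and 4.51 for lens markers.

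Markers of the cell types in and around the retina differed as well. Of 13 RGC and neurite markers 11 were lower, with a median log2 fold change of -1.56, beside the Iroquois median of -1.66. All 11 are among the genes that the study listed as lower in these same libraries. The count and the median are thus not independent evidence, and nothing is read from the likeness of the medians. Their summed level was 3187 and 3656 CPM in WT and 1376 and 1099 CPM in Nrf1-CKO libraries, the same order of libraries as for *Irx2* to *Irx6*. *Thy1* went the other way on 1, 1, 11 and 25 reads and is given no fold. Of 11 progenitor markers 3 were lower, *Ccnd1*, *Hes5* and *Fgf15*, and their median was -0.12. Amacrine and horizontal markers, 2 lower and 2 higher of 6, had a median of -0.05, and photoreceptor precursor markers, 2 lower of 6, had a median of -0.25. Of these, the calls of *Hes5*, *Lhx1*, *Tfap2a*, *Prox1* and *Crx* were lost without 1 library or another.

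All 7 lens markers were higher, and their summed level was 126 and 336 CPM in WT and 7070 and 2854 CPM in Nrf1-CKO libraries, with more in replicate 1, the mutant library with the higher *Irx2* to *Irx6*. All 7 macrophage and microglia markers were higher, at 60.6 and 57.3 CPM in WT and 175 and 209 CPM in Nrf1-CKO libraries. Higher calls were made for 5 of 6 tested pigment epithelium markers (227 and 162 against 413 and 437 CPM), 5 of 7 periocular mesenchyme markers (158 and 121 against 241 and 209 CPM), 6 of 7 surface ectoderm markers (21.6 and 16.1 against 38.0 and 31.4 CPM) and 5 of 6 ciliary margin markers (303 and 306 against 434 and 502 CPM). Endothelium markers, 4 higher and 1 lower of 6, summed to 259 and 265 CPM in WT and 271 and 264 CPM in Nrf1-CKO libraries. Most of that sum was *Kdr*, a receptor gene for vascular growth factor and the lower member, at 199.7 and 211 CPM in WT and 144 and 137 CPM in Nrf1-CKO libraries. The other 5 summed to 59.3 and 54.3 CPM in WT and 127 and 126 CPM in Nrf1-CKO libraries. Higher calls that were lost without 1 library or another included those of *Foxc2*, *Krt5*, *Krt14*, *Krt15*, *Trp63*, *Wfikkn2* and *Zic1*. The 6 surface ectoderm calls became 3 without WT replicate 2, 2 without Nrf1-CKO replicate 1, 2 at an adjusted p of 0.05 and 1 in the authors' normalized values. The 5 periocular mesenchyme calls became 3 without WT replicate 2, at that adjusted p and in those values, and the 5 ciliary margin calls became 3 without Nrf1-CKO replicate 2. No marker of these lists was at 0 in every library. Their part in the Iroquois values, including that of *Irx1*, was not tested.

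Finally, for each member the genes with the most similar profile were sought, by the Euclidean distance between centred log2 CPM over the 4 libraries, among tested genes averaging at least 1 CPM. *Irx5* was nearest to *Ndst3* (distance 0.177), *Chst8* and *Pou4f1*, and *Irx6* to *Klhl1* (0.0725), *Gabbr2* and *Pou4f1*. *Irx2* was nearest to *Atp2b2* (0.0391), *1600029O15Rik* and *Tmem163*, and *Irx3* to *Stk32a* (0.0452), *Npdc1* and *Prokr2*. *Irx4* had no neighbour as close, with *Vstm2l* at 0.296, then *Pmfbp1* and *Nrn1*. *Nrn1*, which encodes the neurite growth factor neuritin, had 1183 and 1180 reads in WT and 227 and 113 in Nrf1-CKO libraries. *Irx1* was nearest to *Nfkb2* (0.0221), a subunit gene of NF-kappaB, *Comtd1* and *Clcf1*. With 4 libraries in 2 groups, such likeness describes these libraries only.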

How the data were processed

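The authors pooled E13.5 retinas, sequenced the RNA on an Illumina instrument, aligned reads to mm10 with Tophat 2.7.2 and counted them per gene with HTSeq. The whole-number counts were deposited without normalization. Normalized values on a log2 scale were also deposited, and how they were made is not given in the sources used here. The submitters' processing notes also name DESeq and limma, with no role. The annotation release and the use of strand in counting are not given either. The 5 summary rows of HTSeq, 74.0% to 75.0% of all entries (54.6% to 58.0% not unique), stayed out of library sizes and tests.

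Genes were filtered with filterByExpr (minimum count 10) and tested with edgeR 4.0.16 (R 4.3.3) by the quasi-likelihood test on TMM-scaled counts, with Benjamini-Hochberg adjustment over 15762 genes. The code was tested on simulated data. DESeq2 1.42.0 and limma 3.58.1 served as alternatives, as did other scalings and filters, a stricter adjusted p, a replicate block and leaving out each library. Replicates differed by more than counting noise (chi-square per gene 45.8 in WT and 56.8 in Nrf1-CKO). Standard errors cover 2 libraries per genotype. PCR copies among reads are not independent molecules.

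RPKM used the union of exons of GENCODE gene models (GRCm38). Coding sequences were aligned with mafft 7.526. The genes named were the 6 members, called genes in and beside the clusters, list members that were called or show a list's range, and the 3 nearest profiles per member (log2 of CPM plus 0.5). *Nrf1*, antisense partners of members, *Pax6*, *Atoh7*, untested list members, *Fto*, *Ndufs6*, *Mrpl36* and D730050B12Rik fall outside that rule and were named after their values were seen. The members and lists were chosen with earlier results of these data known. Values of some marker genes are not reported here.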

Additional observations from a re-analysis of the deposited data

How the results depend on the processing

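The count of Iroquois genes called lower was 5 under every alternative run. The count called higher, which is *Irx1* alone, was 0 at an adjusted p of at most 0.05 and 0 in the authors' normalized log2 values, and ranged from 0 to 1 as single libraries were left out (0 without WT replicate 1 and 0 without Nrf1-CKO replicate 2). Over all genes, 1268 lower and 2024 higher calls became 722 and 940 in the authors' normalized values with limma; the cause was not tested. The replicate block gave 1256 lower and 1970 higher calls and changed no call of an Iroquois gene. Same-numbered libraries did not deviate together (correlation of deviations -0.00501) and the labels name no shared batch. Upper-quartile and library-size scaling moved the median of all genes to 0.0403 and -0.0193. With 2 libraries per genotype, and as few as 42 reads for *Irx4* in a mutant library, the size of its decrease is known less well than its direction.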
